A study of Mus musculus with 4 samples.

Results

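Fc receptors and the signalling genes that myeloid cells use with them were followed in dystrophic muscle with and without matrix metalloproteinase 2 (MMP-2), a secreted gelatinase. The set held 10 genes: the IgG receptor genes Fcgr1, Fcgr3 and Fcgr2b, the adaptor chains Fcer1g and Tyrobp, the growth factor receptor Csf1r, the transcription factor Spi1, the phosphatase Ptpn6 and the integrin chains Itgam and Itgb2. All probe sets whose single annotated gene was one of these were taken, which gave 18 of 45037 probe sets, for 10 of 18193 genes. RNA of tibialis anterior, a mainly fast-fibre leg muscle, was hybridised to Affymetrix whole-genome expression arrays, 1 array for each of 4 groups. The groups were mdx/MMP-2-/- mice at 3 months, mdx mice at 3 months, mdx/MMP-2-/- mice at 1 month and mdx mice at 1 month, all labelled as strain C57BL/6J. Mice of all 4 groups carry the mdx mutation and lack dystrophin, as in Duchenne muscular dystrophy, so there was no array of healthy muscle. Whether RNA of several animals was pooled is not given in the sources used here. With 1 array per group no difference has a replicate check and none was tested, so "higher" and "lower" describe these arrays.

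Fc receptors bind the constant part of antibodies and so let phagocytes take up antibody-coated material. Activating receptors signal through partner chains such as Fcer1g, whose tail carries the tyrosine motif called ITAM that recruits the kinase Syk, while the inhibitory receptor Fcgr2b carries its own ITIM motif, which recruits phosphatases. In injured and dystrophic muscle such genes are known mainly from monocytes, macrophages and neutrophils that clear damaged fibres.

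Signals below are scaled signals: the deposited values after quantile normalization, in arbitrary units in which levels of different probe sets cannot be set against each other. A floor of 17.4, the median of all signals, marks the level under which a signal was not read. Mmp2 itself checked the labels, with 40.9 in mdx/MMP-2-/- and 805 in mdx at 3 months, and 24.7 in mdx/MMP-2-/- and 985 in mdx at 1 month. The tissue label was checked with 6 skeletal muscle markers, all above the floor in every array and with summed signals between 81282 and 83208. Among these, the log2 difference between mdx/MMP-2-/- and mdx at 3 months was -0.03 for Ckm, the muscle creatine kinase, -0.10 for the actin Acta1 and -0.11 for the actinin Actn3. Quantile scaling gives every array the same set of values, which limits how far such high signals can differ. These sums and differences therefore do not measure the muscle content of the arrays. The markers check for skeletal muscle, not for tibialis anterior. The Actb control probe sets, which compare the 3' end of a transcript with its 5' end and so follow RNA quality, gave a ratio of 2.09 in mdx/MMP-2-/- and 2.36 in mdx at 3 months, and 1.05 in mdx/MMP-2-/- and 1.19 in mdx at 1 month. The same ratio for Gapdh was 0.935 in mdx/MMP-2-/- and 0.936 in mdx at 3 months, and 0.850 in mdx/MMP-2-/- and 0.883 in mdx at 1 month. The Actb ratio was higher at 3 months in both genotypes, by more than the Gapdh ratio, and its part in the age differences was not tested.

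At 3 months all 10 genes were higher in mdx/MMP-2-/- than in mdx muscle, where 47.6% of all 12801 genes above the floor were higher. The median log2 difference of the 10 genes was 0.72, a 1.65-fold higher signal, against 0 for all genes, and the single values lay between 0.25 for Itgam and 2.02 for Ptpn6. At 1 month 8 of the 10 were lower in mdx/MMP-2-/-, where 48.3% of all genes were lower, with a median of -0.16 against 0 for all genes. The mdx/MMP-2-/- array at 3 months held the highest of the 4 signals for all 10 genes, which was so for 26.2% of all genes. In whole muscle, more cells of a type and more RNA per cell cannot be told apart.

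**Figure D1:**
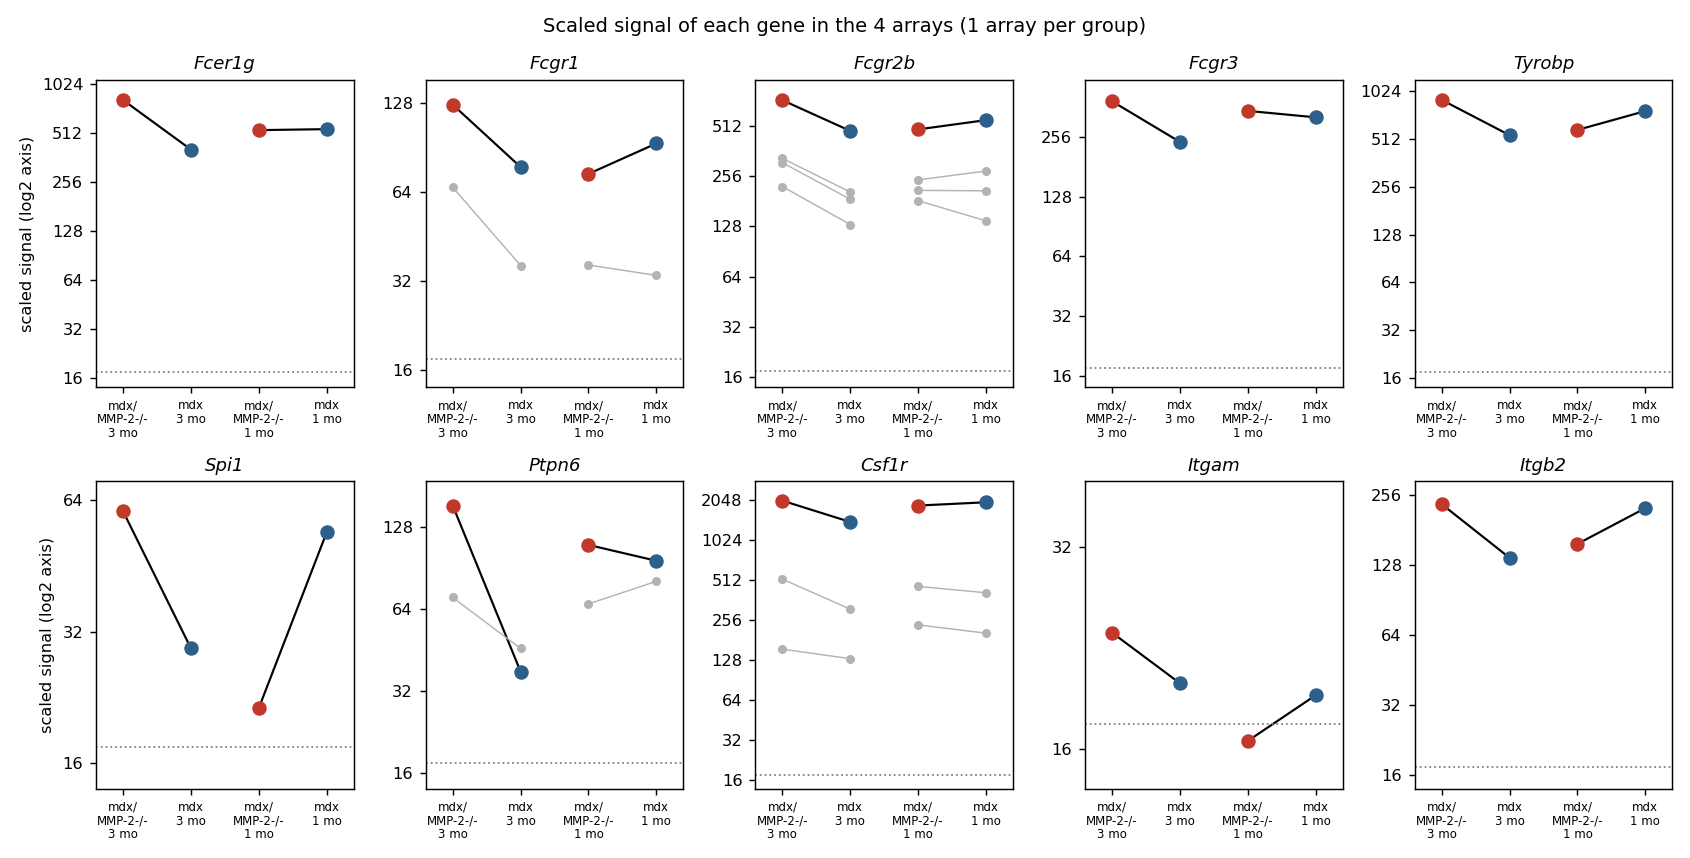
Scaled signal (log2 axis, a range of its own in each panel) of the 10 genes in the 4 arrays, with mdx/MMP-2-/- in red and mdx in blue, 1 array per group and so no error bars. Large points are the probe set that stands for the gene, grey points its other probe sets above the floor, and the dotted line is the floor of 17.4; the red point at 3 months is the highest large point in every panel.

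Of the activating IgG receptors, Fcgr1 encodes the high-affinity receptor CD64. Its signals were 126 in mdx/MMP-2-/- and 77.5 in mdx at 3 months, and 73.5 in mdx/MMP-2-/- and 93.1 in mdx at 1 month. The mdx/MMP-2-/- array was thus the highest at 3 months, 1.62-fold above mdx, and the lowest at 1 month, 1.27-fold below mdx. The second Fcgr1 probe set read 66.3 and 36.0 for mdx/MMP-2-/- and mdx at 3 months, and 36.2 and 33.4 at 1 month. It gave the same direction at 3 months, 1.84-fold higher, and the opposite one at 1 month, 1.08-fold higher.

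Fcgr3 encodes the low-affinity activating receptor CD16, and its 1 probe set read 388 in mdx/MMP-2-/- and 242 in mdx at 3 months, and 347 in mdx/MMP-2-/- and 322 in mdx at 1 month. The mdx array at 3 months stood below the other signals. Its genotype difference was 1.6-fold at 3 months and 1.08-fold at 1 month, both higher in mdx/MMP-2-/-.

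Fcgr2b encodes the inhibitory receptor CD32B and had 5 probe sets, of which 1 lay under the floor in all 4 arrays. The probe set with the highest signal read 726 in mdx/MMP-2-/- and 476 in mdx at 3 months, and 486 in mdx/MMP-2-/- and 552 in mdx at 1 month. At 3 months the log2 differences of the 4 readable probe sets lay between 0.61 and 0.75. At 1 month they lay on both sides of 0, from -0.18 to 0.40, so no direction was shared. The extracellular parts of Fcgr2b and Fcgr3 are close in sequence, and cross-hybridisation between their probe sets was not tested. Set side by side at 3 months, the log2 differences were 0.70 for Fcgr1 and 0.68 for Fcgr3 among activating receptors and 0.61 for inhibitory Fcgr2b, while Fcgr4, an activating receptor outside the 10 genes, had 0.37.

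The adaptor Fcer1g, the common gamma chain of activating Fc receptors, had signals of 814 in mdx/MMP-2-/- and 404 in mdx at 3 months, and 532 in mdx/MMP-2-/- and 540 in mdx at 1 month. Its genotype difference was 2.01-fold at 3 months, where it ranked 149 among 12801 genes from the highest down, and 1.01-fold lower at 1 month. Tyrobp, the ITAM adaptor DAP12 that pairs with receptors such as Trem2, had 902 in mdx/MMP-2-/- and 541 in mdx at 3 months, and 584 in mdx/MMP-2-/- and 767 in mdx at 1 month. It was 1.67-fold higher at 3 months and 1.31-fold lower at 1 month. For both adaptors the mdx array at 3 months held the lowest of the 4 signals.

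Csf1r is the receptor for Csf1 and Il34, the growth factors on which macrophages depend. Its strongest probe set read 2008 in mdx/MMP-2-/- and 1391 in mdx at 3 months, and 1846 in mdx/MMP-2-/- and 1954 in mdx at 1 month. The mdx array at 3 months stood below 3 similar signals, and the difference at 3 months was 1.44-fold. A second probe set gave 1.68-fold at 3 months (517 in mdx/MMP-2-/- and 308 in mdx), whereas a further one gave 1.18-fold (154 in mdx/MMP-2-/- and 131 in mdx). That last probe set was lower at 3 months than at 1 month in both genotypes, 1.52-fold in mdx/MMP-2-/- and 1.55-fold in mdx. It was the sole one of the 17 probe sets above the floor to be lower at 3 months than at 1 month in mdx/MMP-2-/-. At 1 month the strongest Csf1r probe set was 1.06-fold lower in mdx/MMP-2-/-, while the others were 1.12-fold and 1.16-fold higher. With median scaling in place of quantile scaling, Csf1r had a log2 difference of -0.07 at 3 months, against -0.20 for the median of all genes.

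Spi1 encodes PU.1, the transcription factor that myeloid development requires. Its 1 probe set read 60.4 in mdx/MMP-2-/- and 29.3 in mdx at 3 months, and 21.4 in mdx/MMP-2-/- and 54.0 in mdx at 1 month. The genotypes were in opposite order at the 2 ages, with 2.06-fold higher signal in mdx/MMP-2-/- at 3 months and 2.53-fold lower signal at 1 month. The difference at 1 month ranked 15 among all genes from the lowest up. Spi1 alone of the 10 was lower by 2-fold or more at 1 month, as 0.578% of all genes were, and 0 were at least 2-fold higher (0.570% of all genes). The lower signal at each age lay near the floor, and with the floor at the 60th percentile its 1-month difference was no longer 2-fold.

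Ptpn6 encodes the phosphatase SHP-1 of blood cells, which ITIM-bearing receptors recruit. The probe set with the higher signal read 153 in mdx/MMP-2-/- and 37.6 in mdx at 3 months, and 110 in mdx/MMP-2-/- and 95.9 in mdx at 1 month. This 4.06-fold difference at 3 months ranked 8 among all genes. The other probe set read 70.3 in mdx/MMP-2-/- and 45.8 in mdx at 3 months, and 66.6 in mdx/MMP-2-/- and 80.6 in mdx at 1 month, a 1.54-fold difference at 3 months. In both probe sets the mdx array at 3 months was the lowest of the 4, but the size of the difference rested on the first, an _x_at probe set of the kind that may cross-hybridise.

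The integrin chains Itgam (CD11b) and Itgb2 (CD18) form the complement receptor Mac-1 on myeloid cells. Itgb2 read 234 in mdx/MMP-2-/- and 138 in mdx at 3 months, and 158 in mdx/MMP-2-/- and 225 in mdx at 1 month. The order of genotypes was opposite at the 2 ages, 1.7-fold higher at 3 months and 1.42-fold lower at 1 month. Itgam read 23.8 in mdx/MMP-2-/- and 20.0 in mdx at 3 months, and 16.5 in mdx/MMP-2-/- and 19.2 in mdx at 1 month. All 4 signals of Itgam were at or near the floor and the mdx/MMP-2-/- signal at 1 month was below it, and its difference at 3 months was 1.19-fold.

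In all, 3 of the 10 genes (Ptpn6, Spi1 and Fcer1g) were at least 2-fold higher in mdx/MMP-2-/- at 3 months, where 1.18% of all genes were, and 0 were at least 2-fold lower (0.422% of all genes). All 17 probe sets above the floor were higher at 3 months, with a median log2 difference of 0.73, whereas at 1 month 7 were higher and 10 lower. All 10 genes were also higher at 3 months with cyclic loess scaling and with unscaled signals, and 9 with median scaling, where the exception was Csf1r. The count at 2-fold was 2 instead of 3 under each of 3 other settings: with median scaling, where Fcer1g had a log2 difference of 0.62, with a pseudocount in place of the floor, where Spi1 had 0.94, and without _x_at and _s_at probe sets, where Ptpn6 had 0.62. Under these settings, in that order, 1.01%, 2.72% and 1.17% of all genes were at least 2-fold higher. Over all genes, 855 passed 2-fold upward and 13 downward with unscaled signals, against 151 and 54 after quantile scaling.

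**Figure D2:**
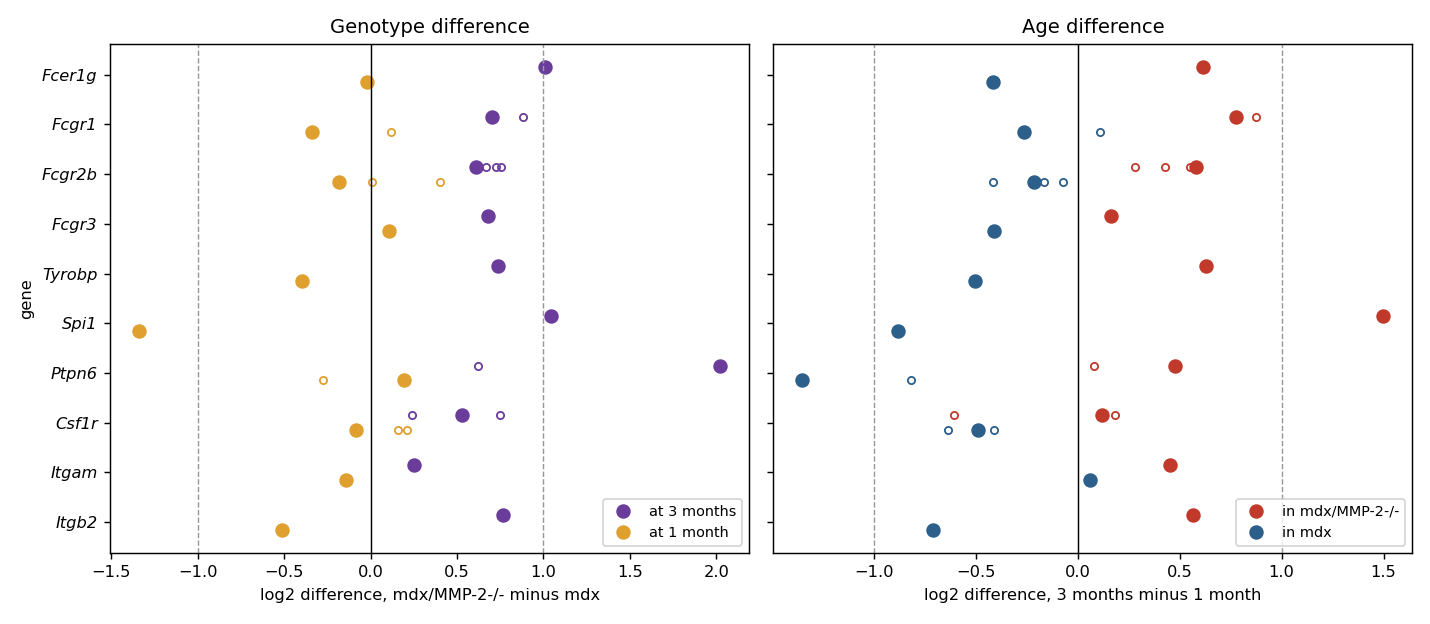
Log2 differences of the 10 genes between genotypes at 3 months and 1 month (left) and between ages in mdx/MMP-2-/- and mdx (right). Filled points are the probe set that stands for the gene, open points its other probe sets above the floor, and dashed lines mark 2-fold; at 3 months every point of the left panel lies above 0, and in the right panel each gene's filled red point lies right of its filled blue point.

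Between the ages, the genotypes were set side by side to see how the same genes differed as the muscle aged. Both age differences share an array with each genotype difference, so they are the same 4 values read another way. In mdx/MMP-2-/-, all 10 genes were higher at 3 months than at 1 month, where 50.1% of all genes were, with a median log2 difference of 0.57 against 0.00 for all genes. Spi1 was 2.83-fold higher with age, Fcgr1 1.71-fold, Tyrobp 1.55-fold and Fcer1g 1.53-fold. Fcgr3 and Csf1r were 1.12-fold and 1.09-fold higher. In that genotype 1 gene, Spi1, was at least 2-fold higher (1.47% of all genes were) and 0 at least 2-fold lower (1.22%).

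In mdx, 9 of the 10 genes were lower at 3 months than at 1 month, where 47.7% of all genes were, with a median of -0.45 against 0 for all genes. Ptpn6 was 2.55-fold lower, Spi1 1.84-fold, Itgb2 1.64-fold and Tyrobp 1.42-fold. Itgam was the exception, with a log2 difference of 0.06 near the floor. Of the 17 probe sets above the floor, 15 were lower and 2 higher. The second Fcgr1 probe set was higher with age in mdx, with 36.0 at 3 months and 33.4 at 1 month, unlike the stronger one. Here 1 gene, Ptpn6, was at least 2-fold lower (1.55% of all genes were) and 0 at least 2-fold higher (0.976%). The mdx array at 3 months held the lowest of the 4 signals for 7 of the 10 genes, which was so for 23.2% of all genes, the exceptions being Fcgr1, Spi1 and Itgam.

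The genotype difference at 3 months minus that at 1 month was above 0 for all 10 genes, as for 50.5% of all genes, with a median of 1.04 on the log2 scale. It was at least 2-fold for 6 of them (Spi1 2.38, Ptpn6 1.83, Itgb2 1.28, Tyrobp 1.13, Fcgr1 1.04 and Fcer1g 1.03), where 2.91% of all genes were, and below -1 for 0 (1.69% of all genes). For Ptpn6 it was 0.90 in the probe set that is not of the _x_at kind. These double differences rest on all 4 arrays and have no error.

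**Figure D3:**
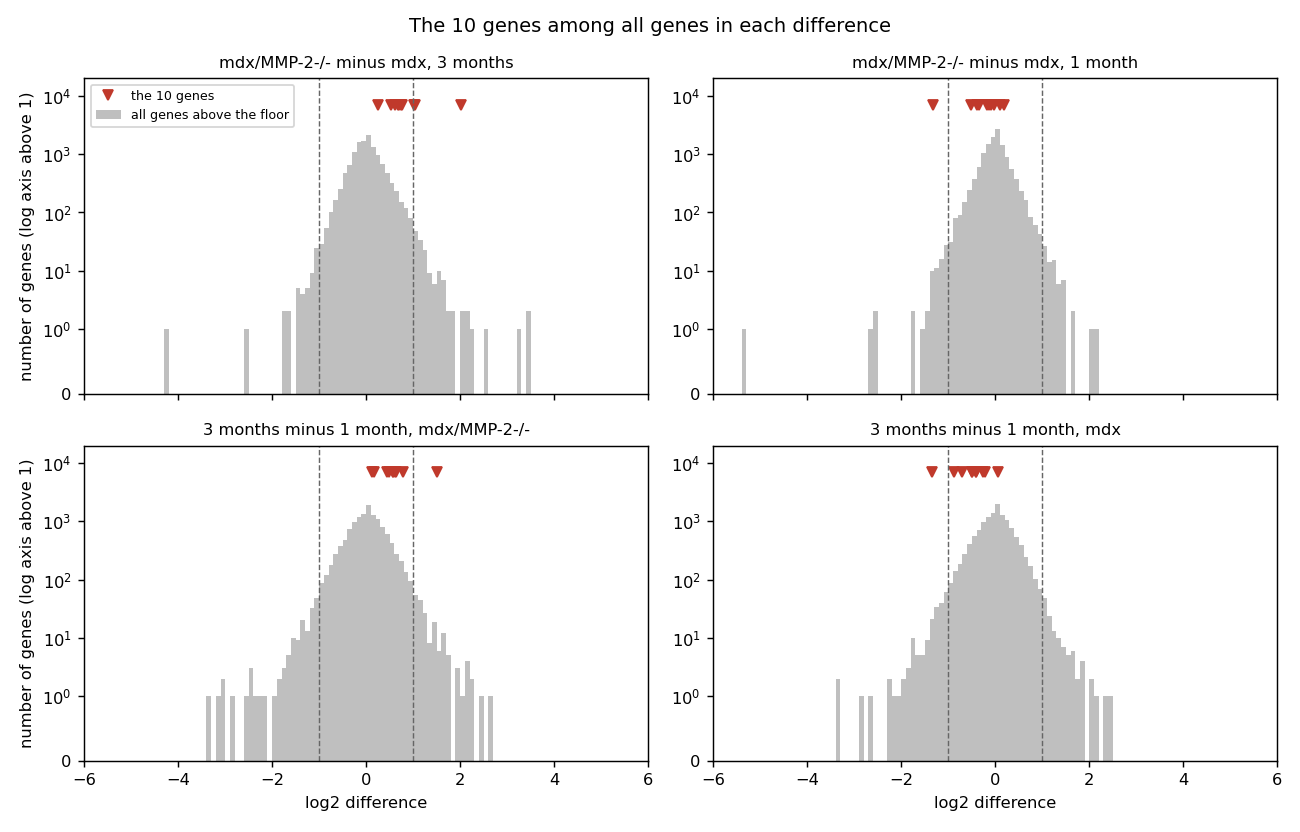
Number of genes per 0.1 of log2 difference (grey bars, log axis above 1) among the 12801 genes above the floor in each of the 4 differences, with the 10 genes as red triangles at an arbitrary height and dashed lines at 2-fold. The triangles lie right of 0 in both panels that put the mdx/MMP-2-/- array at 3 months on top, and all but 1 of them left of 0 for age in mdx.

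The promoters of the genes were searched for the letters bound by PU.1, since Spi1 and the others were higher together at 3 months. RefSeq windows of GRCm38.p6 from 250 bases before to 50 after the start were given for 6 of the 10 genes (Fcer1g, Fcgr1, Fcgr2b, Fcgr3, Ptpn6 and Itgam). The PU.1 core GAGGAA, which holds the GGAA shared by ETS factors, was searched on both strands and found in 3 of these 6 genes, against 31.3% of 27025 genes. The longer GAGGAAGT, which contains that core, was found in 0 of the 6, against 3.69% of all genes. The 120 bases before the start are shown, 5′ to 3′ on the gene's strand, for the 3 genes that hold the core, with the core (GAGGAA, or TTCCTC on the other strand) in capitals. Positions count back from the start.
Itgam, chr7:128062520-128062639, plus strand, cores at -84 and -15: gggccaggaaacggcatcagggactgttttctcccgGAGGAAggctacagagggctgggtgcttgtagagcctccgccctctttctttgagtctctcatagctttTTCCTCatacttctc
Fcgr1, chr3:96293970-96294089, minus strand, core at -55: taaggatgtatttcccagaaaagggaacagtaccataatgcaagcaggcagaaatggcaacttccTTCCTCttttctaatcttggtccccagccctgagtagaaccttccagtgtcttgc
Fcgr3, chr1:171059404-171059523, minus strand, core at -6: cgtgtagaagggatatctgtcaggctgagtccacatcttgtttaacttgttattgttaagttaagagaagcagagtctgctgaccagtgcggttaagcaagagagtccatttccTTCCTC
Itgam held a further core at 33 bases after the start. A match is a run of letters and shows no binding. At 3 months the genotype log2 differences were 0.25, 0.70 and 0.68 for Itgam, Fcgr1 and Fcgr3, which hold the core, and 1.01, 0.61 and 2.02 for Fcer1g, Fcgr2b and Ptpn6, in whose windows it was not found. The value of Ptpn6 is that of its _x_at probe set, the other giving 0.62, and the signals of Itgam were at or near the floor. With 3 genes on each side, whether the core bears on these differences was not tested.

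The other genes of the pathway were read from 5 lists with 87 genes, chosen with earlier results of these data known, of which 72 were above the floor in at least 1 array. At 3 months 59 of the 72 were higher in mdx/MMP-2-/- and 12 lower, where 47.6% of all genes were higher, with a median log2 difference of 0.42. At least 2-fold higher were 10 (1.18% of all genes) and at least 2-fold lower 0 (0.422% of all genes). At 1 month 34 were higher and 33 lower, with a median of 0. The lists differed among themselves, as follows.

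Among other receptors and adaptors that signal through ITAM or ITIM chains, 17 of 18 were higher at 3 months, with a median of 0.60. The C-type lectin Clec4d, which signals through Fcer1g, had 188 in mdx/MMP-2-/- and 73.5 in mdx at 3 months, and Clec4a2, a lectin of the inhibitory kind, 185 in mdx/MMP-2-/- and 89.8 in mdx. Cd300lb was 1.92-fold higher and the ITIM receptor Sirpa 1.76-fold. Fcgr4, a further activating IgG receptor, was the sole gene of this list at least 2-fold apart at 1 month, with 67.9 in mdx/MMP-2-/- and 33.2 in mdx, and was named after its values were seen. At 3 months it read 75.2 in mdx/MMP-2-/- and 58.2 in mdx, 1.29-fold higher, so that its genotype difference at 3 months minus that at 1 month was -0.66 on the log2 scale. At 1 month Fcgr4 was thus higher in mdx/MMP-2-/-, as were Fcgr3 and the second Fcgr1 probe set, unlike the stronger probe set of Fcgr1.

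Among kinases, phosphatases and adaptors downstream of Fc receptors and integrins, 24 of 31 were higher and 6 lower at 3 months, with a median of 0.30. Coro1a, an actin regulator of leukocytes, was 2.42-fold higher, the integrin activator Fermt3 1.76-fold and the phosphatase Ptpn18 1.6-fold. With Coro1a, 4 more genes were at least 2-fold higher, where 1.18% of all genes were. They were named after their values were seen: Syk, the kinase that binds ITAMs (53.1 in mdx/MMP-2-/- and 22.9 in mdx), Dok1, Sla, and Pik3ap1, at least 2.03-fold against a signal under the floor. Inpp5d, the phosphatase SHIP-1 that Fcgr2b recruits, had 59.6 in mdx/MMP-2-/- and 48.8 in mdx at 3 months, and 47.8 in mdx/MMP-2-/- and 81.2 in mdx at 1 month.

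All 7 measured growth factor and receptor genes were higher at 3 months, with a median of 0.56. Csf1, a ligand of Csf1r, had 146 in mdx/MMP-2-/- and 72.2 in mdx at 3 months, and 118 in mdx/MMP-2-/- and 109 in mdx at 1 month. At 3 months the strongest probe set of its receptor had a log2 difference of 0.53, against 1.02 for the ligand. The other Csf1r probe sets gave 0.75 and 0.24. Csf2rb, a shared receptor chain for cytokines of myeloid cells, was 1.29-fold higher. Of 10 myeloid transcription factors, 8 were higher, with a median of 0.30 and 0 past 2-fold. Irf5 was 1.72-fold, Runx1 1.6-fold, Klf4 1.31-fold and Cebpb 1.27-fold higher, against 2.06-fold for Spi1. Ikzf1, of lower signal and named after its values were seen, was 1.97-fold higher, with 63.5 in mdx/MMP-2-/- and 32.2 in mdx.

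Partners and ligands of the integrins divided, with 3 of 6 higher at 3 months and a median of 0.02. Icam1, a ligand of Mac-1, had 88.7 in mdx/MMP-2-/- and 62.8 in mdx. The integrin chains Itgal and Itgax, named after their values were seen, were also higher, with log2 differences of 0.76 and 0.32. The junction protein F11r had 74.7 in mdx/MMP-2-/- and 91.0 in mdx. The other two of the lower genes were Icam2 and Jam3, named after their values were seen, with log2 differences of -0.73 and -0.46. Endothelial cells are known to carry such adhesion and junctional proteins, Icam1 among them, and their part in these values was not tested.

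**Figure D4:**
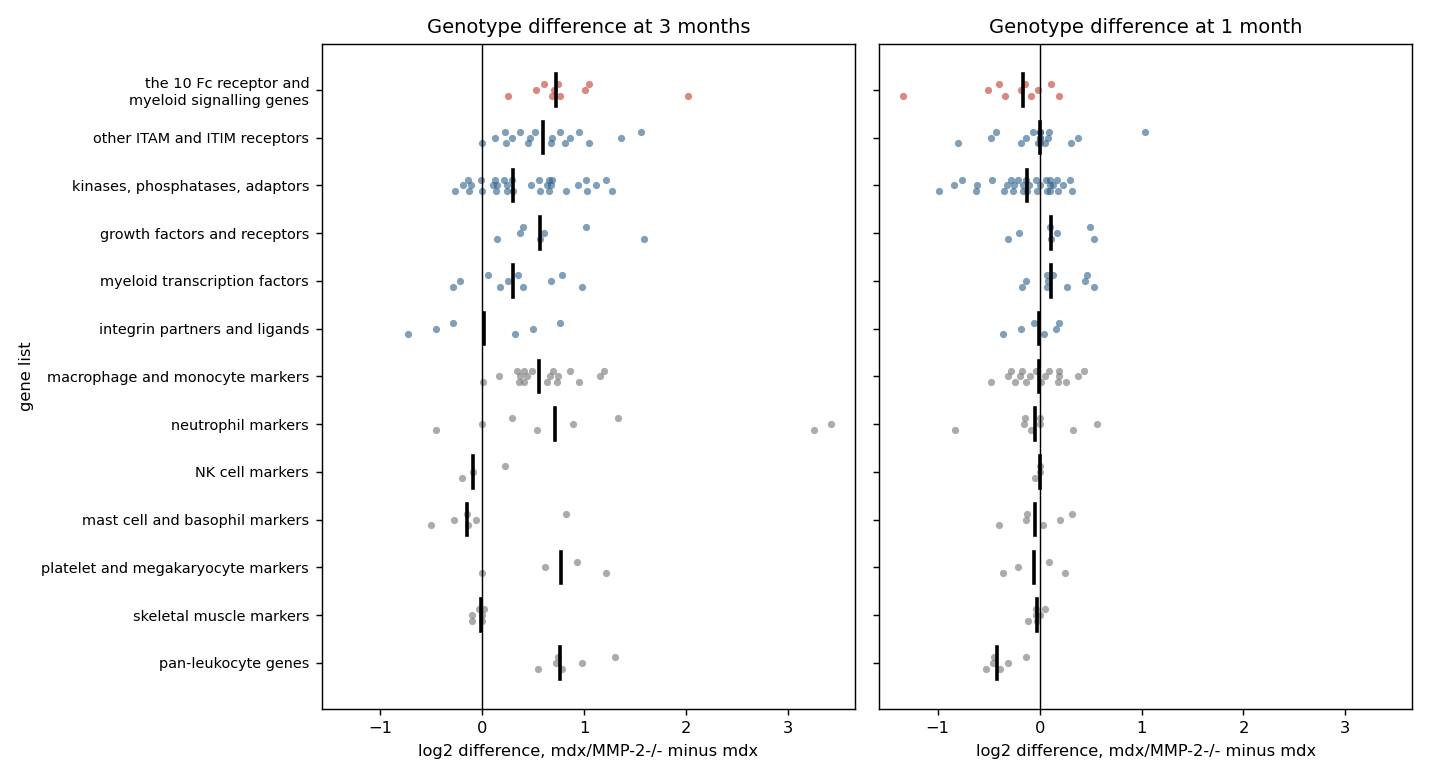
Log2 genotype differences at 3 months (left) and 1 month (right), 1 point per gene above the floor, for the 10 genes (red), other genes of the pathway (blue) and markers of cell types (grey), with the median of each list as a black bar. At 3 months the medians of macrophage, neutrophil, platelet and pan-leukocyte markers lie above 0 with that of the 10 genes, and those of NK cell, mast cell and skeletal muscle markers lie at or below 0.

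Markers of cells that carry these receptors were read beside them. All 18 macrophage and monocyte markers were above the floor. All 18 were higher in mdx/MMP-2-/- at 3 months, where 47.6% of all genes were, with a median log2 difference of 0.56. At 1 month 9 of the markers were higher and 9 lower, with a median of -0.009. Their summed signal was 15656 in mdx/MMP-2-/- and 10652 in mdx at 3 months, and 12639 in mdx/MMP-2-/- and 13863 in mdx at 1 month. Ccr2, the chemokine receptor of inflammatory monocytes, had 252 in mdx/MMP-2-/- and 110 in mdx at 3 months, Msr1 118 in mdx/MMP-2-/- and 52.8 in mdx, and Mrc1 855 in mdx/MMP-2-/- and 443 in mdx. Ccr2, Msr1 and Mrc1 were also higher in mdx/MMP-2-/- at 1 month, with log2 differences of 0.26, 0.43 and 0.05. All 6 pan-leukocyte genes were higher at 3 months (median 0.76) and all 6 lower at 1 month (median -0.42), where 48.3% of all genes were lower. Among them Cytip was 2.46-fold, Cd52 1.97-fold and Cd53 1.72-fold higher at 3 months. The part of these cells in the values of the 10 genes was not tested.

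Of 12 neutrophil markers, 8 were above the floor and 6 of those were higher at 3 months (47.6% of all genes were), with a median of 0.71. The summed signal was 738 in mdx/MMP-2-/- and 172 in mdx at 3 months, and 237 in mdx/MMP-2-/- and 232 in mdx at 1 month. That sum holds S100a8, with 343 in mdx/MMP-2-/- and 35.9 in mdx, and S100a9, with 216 in mdx/MMP-2-/- and 20.2 in mdx, whose log2 differences at 3 months were 3.26 and 3.42. The granule markers Ltf and Elane and the receptor Cxcr2 were at or under the floor in all 4 arrays. The part of neutrophils was not tested. Mast cells and basophils also carry Fcer1g, as part of the IgE receptor. Of 8 markers of these cells, 6 were above the floor and 5 of those were lower at 3 months. Their summed signal was 349 in mdx/MMP-2-/- and 375 in mdx at 3 months, and 388 in mdx/MMP-2-/- and 402 in mdx at 1 month. Cpa3 and Cma1 of that list were 1.1-fold and 1.11-fold lower in mdx/MMP-2-/- at 3 months. The exception was Kit, named after its values were seen, with 47.5 in mdx/MMP-2-/- and 26.9 in mdx, 1.76-fold higher.

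Lymphoid markers were mostly unread: 1 of 7 T cell markers, 2 of 6 B cell markers and 3 of 6 NK cell markers on the array exceeded the floor in any array, and Cd3d, Cd3e, Cd3g, Cd79a, Ms4a1 and Ncr1 did so in 0. Summed signals at 3 months were 31.1 in mdx/MMP-2-/- and 25.4 in mdx for T cells, 49.2 in mdx/MMP-2-/- and 49.6 in mdx for B cells, and 54.7 in mdx/MMP-2-/- and 59.4 in mdx for NK cells. Of 6 dendritic cell markers 2 were above the floor, summing to 88.8 in mdx/MMP-2-/- and 89.2 in mdx. Of 5 platelet markers 4 were, summing to 1033 in mdx/MMP-2-/- and 510 in mdx. Pf4 of that list, which some macrophages also express, read 948 in mdx/MMP-2-/- and 498 in mdx. The sums include signals under the floor. Of 3 red cell markers on the array, Alas2 alone was above the floor, with 27.6 in mdx/MMP-2-/- and 38.5 in mdx.

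The genes whose 4 values, centred on their own mean, lay nearest to the median profile of the 10 genes were drawn from 7601 named genes with a signal of at least 85.4 in some array. On the log2 scale that profile stood at 0.40 in mdx/MMP-2-/- and -0.36 in mdx at 3 months, and at -0.19 in mdx/MMP-2-/- and 0.08 in mdx at 1 month. The nearest, by root mean square distance over 4 arrays, were Tubb2a (0.030), Cd68 (0.040), Lcp1 (0.044), Scaf4 (0.048), Tnrc18 (0.049), Nrros (0.050), Mcm5 (0.054) and Cd53 (0.056). Cd68, Lcp1, Nrros and Cd53 are known from leukocytes, Tubb2a is a tubulin and Mcm5 a replication factor. Tyrobp lay nearest to the profile among the 10 genes (0.048), and Ptpn6 (0.54) and Spi1 (0.41) farthest. With 4 values per gene many profiles come close: 196 of the 7601 genes lay within the median distance of the 10 genes (0.15).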

How the data were processed

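Tibialis anterior RNA was measured on 4 arrays, grouped by the labels, with 1 array per group. The deposited values are intensity, which the authors made with MAS5 (Affymetrix Expression Console), as the submitters' processing notes record. How they were scaled is not given in the sources used here, and the columns had no common target: 2% trimmed means lay between 90.3 and 122.3.

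Of 45101 probe sets, 64 controls were left out. Gene names came from the platform annotation, and 34945 probe sets had 1 gene. Arrays were quantile normalized in limma 3.58.1 (R 4.3.3). Signals under 17.4, the 50th percentile, were raised to it, and log2 was taken. Where a gene had several probe sets, that of highest mean log2 signal stood for it, and 12801 genes exceeded the floor in some array. Python 3.11.15, pandas 2.3.3 and numpy 2.4.6 were used for the tables. The steps were tested on simulated data. Fold is the ratio of floored signals.

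The 10 genes and all lists were chosen with earlier results of these data known. Besides the 10 genes, up to 4 genes per pathway list and 3 per marker list with the largest 3-month genotype differences and a signal of at least 85.4, and the 8 genes of nearest profile, were named. A gene that this rule names is not reported here. Of 187 listed genes, 170 were matched to a probe set with 1 gene. Alternatives changed the scaling, floor, probe set rule and fold threshold.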

Additional observations from a re-analysis of the deposited data

Results flagged for a closer look

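The genotype difference was above 0 at 3 months and below 0 at 1 month for 8 of the 10 genes, as for 22.9% of all genes. These were Fcer1g, Fcgr1, Fcgr2b, Tyrobp, Spi1, Csf1r, Itgam and Itgb2. This rests on 1 probe set per gene. At 1 month the other Csf1r probe sets (0.16 and 0.21), the second of Fcgr1 (0.12) and those of Fcgr2b with 0.40 and 0.01 were higher. Fcer1g had -0.02 at 1 month, and 0.07 with unscaled signals, and Itgam lay at or near the floor. The age difference was above 0 in mdx/MMP-2-/- and below 0 in mdx for 9 of the 10, all but Itgam, as for 17.8% of all genes. This too rests on 1 probe set per gene. The second Fcgr1 probe set was above 0 in mdx/MMP-2-/- (0.87) and in mdx (0.11). A further Csf1r probe set was below 0 in mdx/MMP-2-/- (-0.61) and in mdx (-0.64). In log2 units the genotype difference at 3 months exceeded that at 1 month by 1.03 for Fcer1g, 1.04 for Fcgr1, 0.79 for Fcgr2b, 0.57 for Fcgr3 and 1.13 for Tyrobp. It did so by 2.38 for Spi1, 1.83 for Ptpn6, 0.61 for Csf1r, 0.39 for Itgam and 1.28 for Itgb2. With 1 array per group these opposite directions were not tested.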

How the results depend on the processing

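No paired analysis was possible because each group holds 1 array, and for the same reason no replicate could be left out. The median of the 10 genes kept its sign in all 5 differences under all 8 alternatives of scaling, floor and probe set rule. Without scaling, 8 genes instead of 3 were at least 2-fold higher in mdx/MMP-2-/- at 3 months, 3 instead of 1 higher with age in mdx/MMP-2-/-, 2 instead of 1 at least 2-fold lower with age in mdx, and 0 instead of 1 higher with age in mdx at all. This setting moved the median of all genes by 0.41 at 3 months. Unscaled, 6.64% of all genes were at least 2-fold higher at 3 months, 3.62% higher with age in mdx/MMP-2-/- and 1.97% lower with age in mdx. After quantile scaling these shares were 1.18%, 1.47% and 1.55%. With median scaling 0 instead of 2 genes were higher at 1 month. With the floor at the 60th percentile, which leaves 9 genes, 0 instead of 1 were 2-fold lower at 1 month (0.265% of all genes were). In that setting 0 instead of 1 were higher with age in mdx. Without _x_at and _s_at probe sets, 1 instead of 2 were higher at 1 month. There 0 instead of 1 were 2-fold lower with age in mdx (1.61% of all genes were). The 3-month difference of Ptpn6 was then 0.62 on the log2 scale instead of 2.02 (1.32 with the mean of its probe sets). At 3-fold the counts were 1 higher at 3 months, 0 lower at 1 month, 0 higher with age in mdx/MMP-2-/-, 0 lower with age in mdx, and 2 for the double difference, where 0.156%, 0.0547%, 0.234%, 0.227% and 0.523% of all genes were, in that order. At 1.5-fold they were 8 higher at 3 months, 4 higher with age in mdx/MMP-2-/- and 3 lower with age in mdx, where 6.12%, 7.41% and 7.27% of all genes were. Among all genes, those 2-fold higher and lower without scaling were 131 and 35 at 1 month (73 and 74 after quantile scaling), 466 and 92 with age in mdx/MMP-2-/- (188 and 156) and 67 and 253 with age in mdx (125 and 198). With median scaling they were 40 and 126 at 1 month and 129 and 246 at 3 months (151 and 54). Signals near the floor limit Itgam, and Spi1 in the array with the lower signal at each age.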
